A study of Rattus norvegicus with 6 samples.

Results

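The 43 genes described here encode the proteins that select, license and fire DNA replication origins, copy DNA at the fork, supply its nucleotides and repackage the new strands into chromatin. They were chosen by name from knowledge of the pathway, with earlier results of these data known. All 43 were found among the 18718 rows of the deposited count table. RNA was sequenced from HEI-OC1 cells after siRNA knockdown of Hnrnpd, which encodes the RNA-binding protein AUF1 (3 libraries, siHnrnpd 1 to 3), and from cells given a control siRNA (3 libraries, controls 1 to 3). The genotype labels call the groups AUF1 knock down and control, and all 6 libraries come from the same cell line. HEI-OC1 is an auditory line made from the organ of Corti, the hearing organ. It is generally known as a mouse line that was conditionally immortalised with a temperature-sensitive SV40 large T antigen, a viral protein that binds RB and p53. The labels name rat as the organism and a rat genome build was used for alignment, and no test of the reads' species was made here. Whether the replicates were separate cultures is not stated, and the p-values then reflect only how far these libraries differ from one another, possibly for technical reasons. The comparison asks which transcripts change when AUF1 is reduced, in a study whose title concerns senescence, a state in which cells stop replicating their DNA.

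Replication begins at origins marked by the origin recognition complex (ORC). In G1 phase, CDC6 and CDT1 help ORC load the MCM2-7 ring, the inactive helicase, and geminin later binds CDT1 so that no origin is loaded again. In S phase CDC45 and the GINS complex join MCM2-7 to form the active helicase, polymerase alpha with its primase lays down primers, polymerases delta and epsilon extend them while held by the PCNA clamp, and RPA coats the single strands between. Many of these genes are textbook targets of the E2F transcription factors, which RB restrains outside the cycle, and loss of their mRNAs is a common mark of cells that have left the cycle.

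Promoter sequence is described first. The genes were not chosen by their promoters. Many are textbook E2F targets, however, so a higher share of E2F matches could be foreseen from the choice. Rat RefSeq promoters (build GRCr8, 250 bases before to 50 bases after the gene start) were found for 37 of the 43 genes, but not for Orc1, Cdc6, Mcm4, Gins4, Rpa3 and Rrm2. The E2F motif was searched on both strands as TTTCCCGC, TTTCGCGC, TTTGCCGC or TTTGGCGC, and overlapping matches were each counted. A match was present in 16 of the 37 promoters (43.2%), against 2.25% of all 27457 promoters in the table and 4.27% of the 8545 promoters of protein-coding genes tested in these cells. At least 2 matches occurred in 8 of the 37 (21.6%), against 0.257% of the promoters of tested genes. The CCAAT box, searched as CCAAT on both strands, was in 62.2% of the 37 and 38.4% of the promoters of tested genes. Median GC content was 60% and 61.3% in these sets. All 5 MCM2-7 genes with a promoter in the table held an E2F match, as did 3 of the 8 polymerase and primase genes and 1 of the 6 clamp and clamp loader genes. A match is a description of the letters and not evidence of binding.

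The 60 bases around the E2F match nearest the gene start are shown for the MCM helicase genes, because every one of their promoters in the table held a match. Capitals mark E2F matches. In Mcm2 and Mcm6 matches on opposite strands overlap, which leaves one longer run of capitals.
Mcm2 (GRCr8, chr4:122918071-122918130, minus strand): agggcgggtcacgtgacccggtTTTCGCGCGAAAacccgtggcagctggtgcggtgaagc
Mcm3 (GRCr8, chr9:30733719-30733778, minus strand): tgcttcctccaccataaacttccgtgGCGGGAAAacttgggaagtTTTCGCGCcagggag
Mcm5 (GRCr8, chr19:13488779-13488838, plus strand): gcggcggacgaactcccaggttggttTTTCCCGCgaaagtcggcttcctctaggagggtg
Mcm6 (GRCr8, chr13:42404454-42404513, minus strand): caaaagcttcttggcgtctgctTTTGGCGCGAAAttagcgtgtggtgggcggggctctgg
Mcm7 (GRCr8, chr12:22163197-22163256, minus strand): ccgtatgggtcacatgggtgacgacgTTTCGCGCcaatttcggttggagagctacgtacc

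The promoter of Rpa1 is shown whole, because Rpa1 had the smallest p-value of the 43 genes. It held 0 matches to the E2F motif, and capitals mark its 2 CCAAT matches.
Rpa1 (GRCr8, chr10:60698230-60698529, minus strand): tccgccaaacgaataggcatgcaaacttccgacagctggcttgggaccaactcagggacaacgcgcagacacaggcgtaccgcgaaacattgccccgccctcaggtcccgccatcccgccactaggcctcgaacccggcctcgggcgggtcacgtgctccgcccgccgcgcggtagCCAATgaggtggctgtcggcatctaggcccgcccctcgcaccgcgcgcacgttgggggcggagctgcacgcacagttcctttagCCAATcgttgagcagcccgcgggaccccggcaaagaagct

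**Figure D1:**
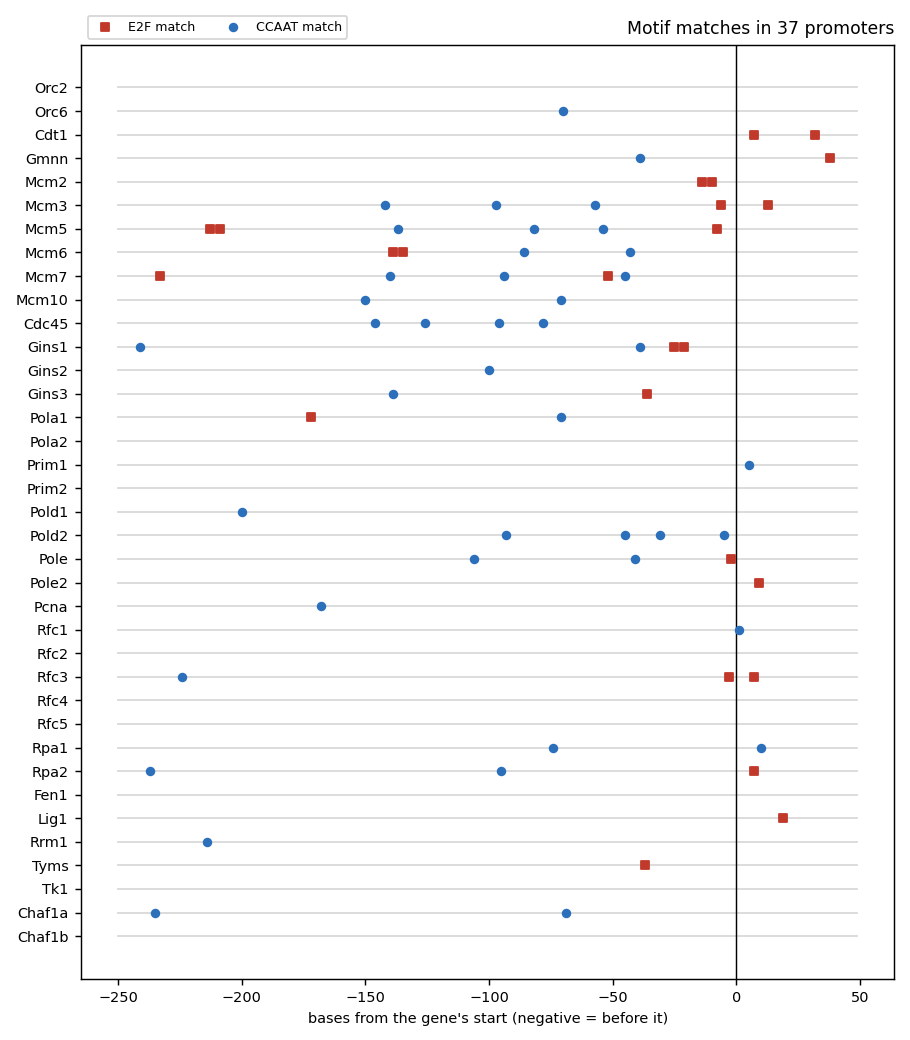
Positions of E2F matches (squares) and CCAAT matches (circles) in the 37 RefSeq promoters, with the distance of the first base of each match from the gene start on the x axis, in bases. E2F matches lie in 16 of the rows, among them Mcm2, Mcm3, Mcm5, Mcm6 and Mcm7.

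The libraries held 28984535 to 35842904 counts, and 12268 genes passed the filter on low counts and were tested. The siRNA target Hnrnpd (listed as Hnrpd, ENSRNOG00000002292) had 177, 200.2 and 183 CPM in siHnrnpd 1 to 3, against 319, 303 and 269 CPM in controls 1 to 3, where CPM are counts scaled to library size after TMM normalisation. Its log2 change was -0.67 (edgeR adjusted p = 0.0426), or 0.628 of the control level. It stayed negative in all 15 alternatives, from -0.74 to -0.63, and passed the threshold in 8 of them, with adjusted p from 2.11e-10 to 0.319. The cells expressed markers of cycling cells: Mki67 averaged 16.1 FPKM over the 6 libraries, Top2a 60.1 and Cdk1 344. Hair cell markers were scarce. Of 10 listed, Atoh1, Pou4f3, Ocm and Tmc1 have no row in the count table, Gfi1, Espn, Otof and Slc26a5 had at most 7 counts in a library, Myo7a had 2 to 18, and Myo6 averaged 3.88 FPKM. Fibroblast markers were uneven. Col1a1 averaged 346 FPKM, Thy1 251, Col3a1 107 and Pdgfrb 34.8, whereas Pdgfra averaged 5.17 FPKM, Lum 3.44 and Col1a2 0.625, and Dcn had 2 to 9 counts in a library.

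The replication genes stood high among expressed genes by FPKM. The authors' FPKM divides counts by gene length so that levels can be compared between genes. It also depends on how well the reads of each gene aligned to the rat build, which was not tested. FPKM had a median of 48.9 over the 43 genes, with a range from 5.97 for Pola1 to 381 for Pcna (each the mean of 6 libraries). The median gene lay at the 85.3 percentile of the tested genes, and 0 genes fell under the filter, since the smallest count of any of the 43 in a library was 521. After Pcna came Tk1, the thymidine salvage kinase, at 179 FPKM, Rrm2, the small subunit of ribonucleotide reductase, at 173, geminin (Gmnn) at 156 and Mcm7 at 154. The place of Rrm2 in this order is uncertain. A second row described as ribonucleotide reductase M2, not among the 43, averaged 418 FPKM, above Pcna. The ranges of Tk1, Rrm2, Gmnn and Mcm7 over the 6 libraries overlapped from one to the next, while Pcna lay apart from Tk1 and Mcm7 from Mcm2. Of 42 neighbouring pairs in the order, 33 overlapped in this way. At the lower end stood Pole, the catalytic subunit of polymerase epsilon, at 7.49 FPKM, Orc2 at 7.41, Cdc45 at 6.70, Orc1 at 6.32 and Pola1, the catalytic subunit of polymerase alpha, at 5.97, each overlapping the next.

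Subunits of one complex did not have equal FPKM, with the same limit on comparing genes. Within MCM2-7, whose proteins form a ring with 1 copy of each, the level was highest for Mcm7 and lowest for Mcm3, a ratio of 3.97 ± 0.0798 in siHnrnpd and 4.0 ± 0.143 in control (SD, n = 3 each). Within the GINS complex the ratio of Gins1 to Gins3 was 8.96 ± 0.436 in siHnrnpd and 9.16 ± 0.541 in control. For the clamp loader, the highest subunit stood 7.50 ± 0.821 times above the lowest in siHnrnpd and 8.05 ± 1.11 times in control. For RPA the ratio was 1.92 ± 0.158 in siHnrnpd and 1.98 ± 0.00665 in control. In each complex the difference between the groups was smaller than the SD of at least 1 group.

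**Figure D2:**
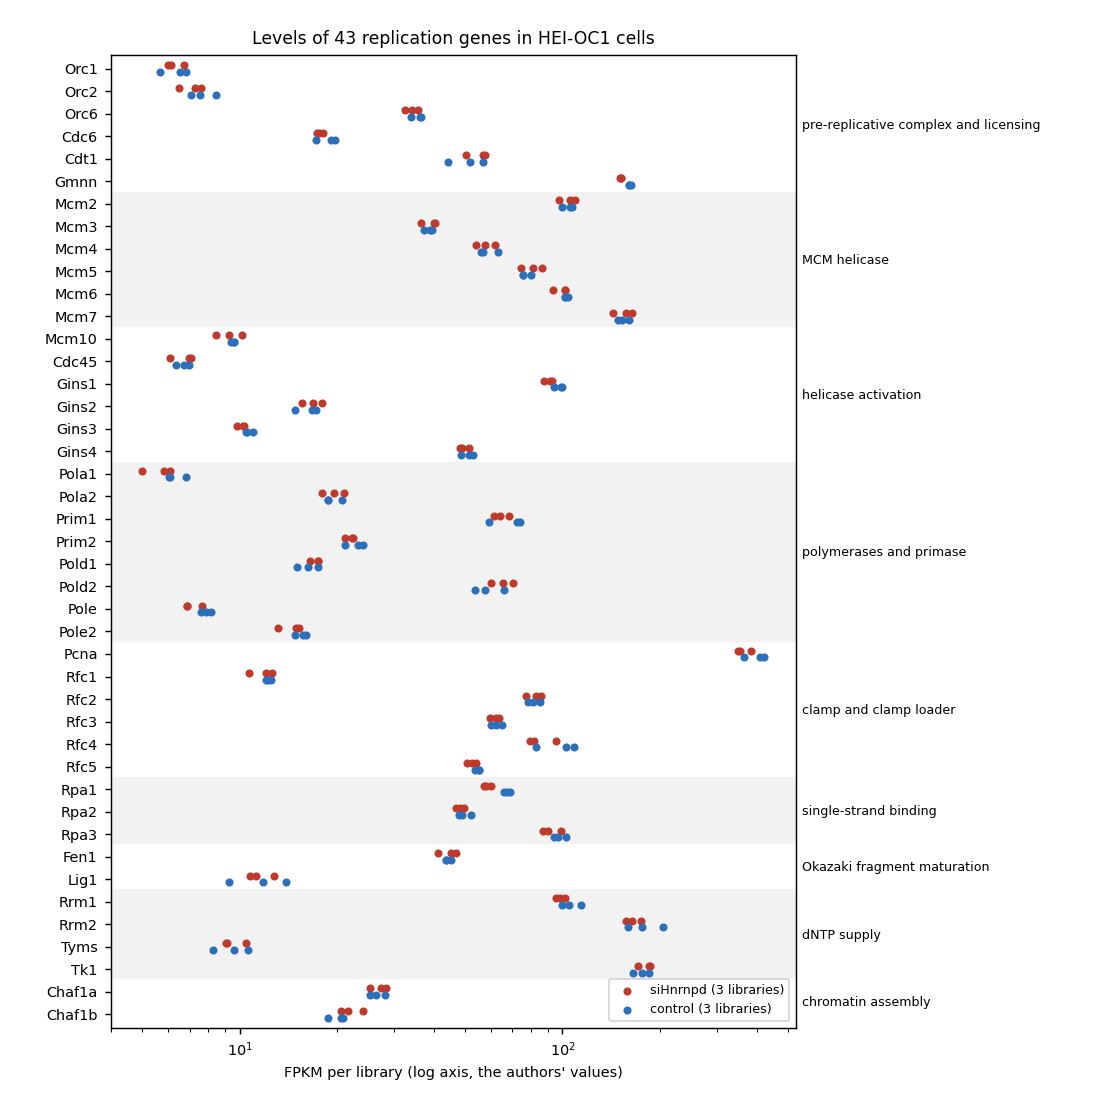
FPKM of each of the 43 genes in each library on a log axis, grouped by role, with siHnrnpd libraries in red above the control libraries in blue. Levels run from about 5.97 FPKM for Pola1 to 381 for Pcna, and the colours overlap in most rows.

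Replication mRNAs held nearly the same level after the knockdown. In bulk RNA, fewer cells in S phase and less RNA per cell cannot be told apart. The test called 0 of the 43 genes at an adjusted p under 0.05, against 10 of 12268 genes tested, or 0.0815% (edgeR; 0.0571% lower and 0.0245% higher). DESeq2 also called 0, against 1.41% of the genes it adjusted. At an unadjusted p under 0.05, edgeR had 2 of the 43 lower (4.65%), Rpa1 and Pole, against 5.2% of all genes tested, and 0 higher, against 5.84%. DESeq2 had 1 of the 43 lower at that threshold, Rpa1, against 3.14% of the 18710 genes to which it gave a p, and 0 higher, against 3.2%. Those shares include genes under the edgeR filter, and of the 12268 genes tested in edgeR DESeq2 had 574 lower and 585 higher. The bounds that follow were chosen after the values were seen. The 95% interval of the change lay within 1.5-fold in both directions for all 43 genes, against 76.4% of all genes tested. It lay within 1.3-fold for 41 genes (95.3%), against 54% of all genes tested, and within the tighter bound of 25% above control, and its inverse below, for 36 (83.7%), against 42.8%. The 43 genes also had more reads than most genes, and their median SE on the log2 scale was 0.0729, against 0.10 over all genes tested. The genes whose intervals reached past the tightest bound were Rpa1, Rfc4, Pcna, Pola1, Rrm2, Orc2 and Pold2, and of these Pola1 and Rfc4 also passed 1.3-fold.

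**Figure D3:**
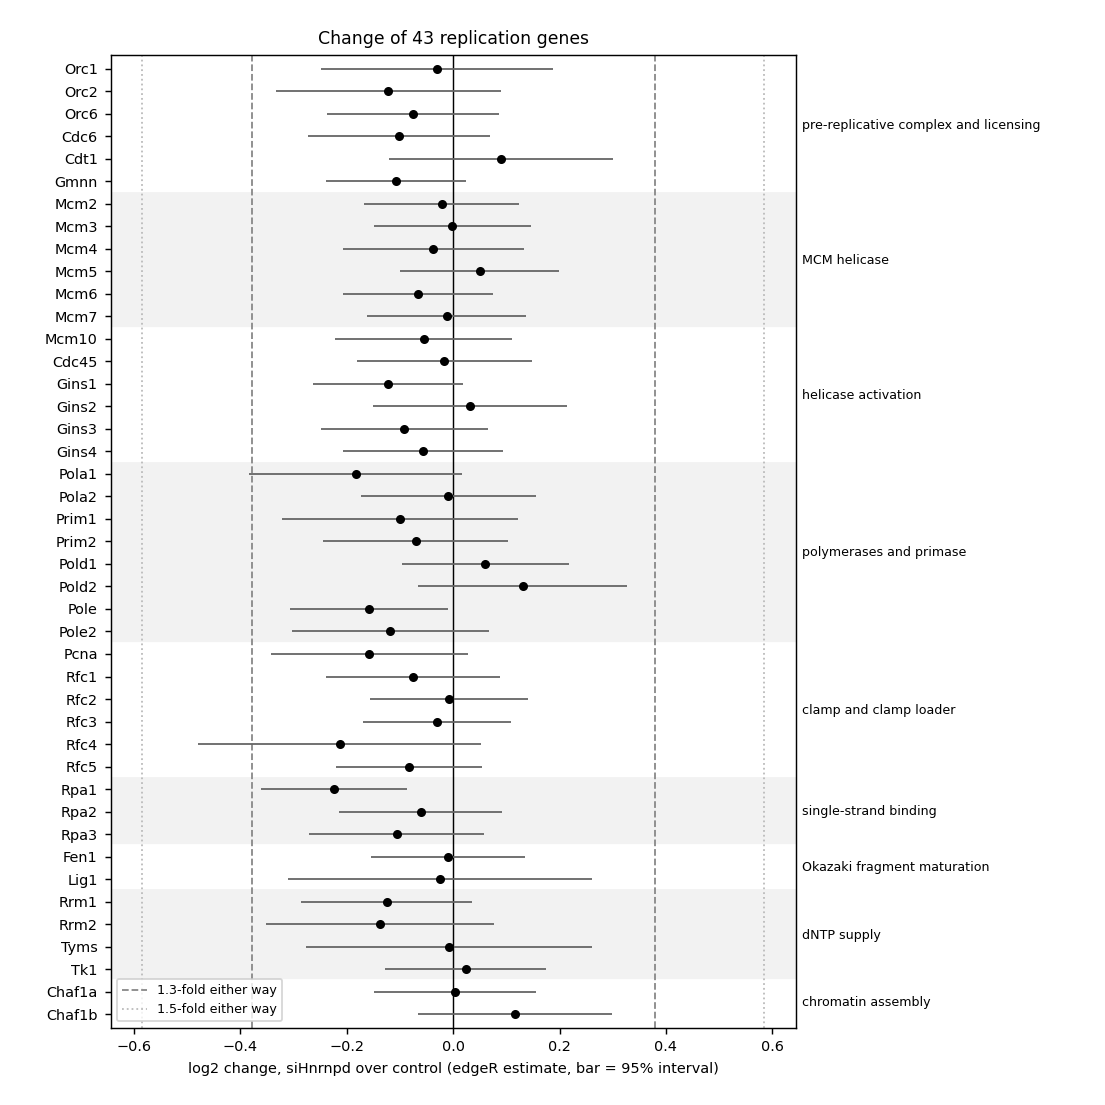
log2 change of each gene, siHnrnpd over control, with its 95% interval from edgeR, grouped by role. Dashed lines mark 1.3-fold and dotted lines 1.5-fold in both directions, and the interval lies between the dotted lines for all 43 genes.

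Within these limits the signs leaned one way. Of the 43 genes, 35 had a negative log2 change (81.4%), against 48.3% of all genes tested, and the median change was -0.056, against 0.0054. In 7 genes (16.3%) the highest siHnrnpd library was under the lowest control library, against 8.57% of genes tested, and 0 genes were apart in the other direction, against 8.42%. Counting either direction, the 16.3% stood beside a background of 17%. These 7 were Rpa1, Pole, Pola1, Gins1, Gmnn, Rfc5 and Gins3. The genes share their libraries and are not independent observations, so these shares describe the libraries. The number of negative genes ran from 27 without siHnrnpd 2 to 36 under several settings, and was 28 on log2(FPKM + 1) and 30 after upper-quartile scaling. The sign was the same under all 15 alternatives for 26 of the 43 genes, of which Pold2 and Chaf1b were positive and the others negative.

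**Figure D4:**
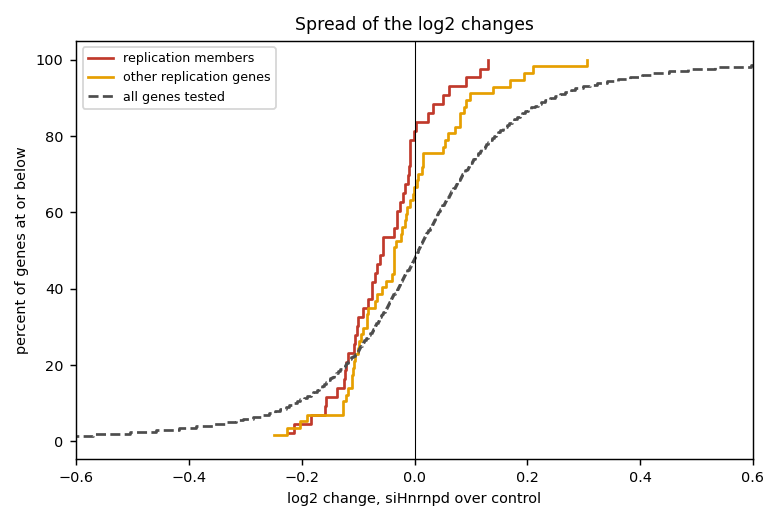
Share of genes (y axis, percent) at or below each log2 change (x axis, siHnrnpd over control), for the 43 replication genes, 57 other replication genes and all genes tested. The x axis is cut, so more than the outer 0.5% of all genes tested at each end is not drawn. The curve of the 43 genes is steeper than that of all genes and lies to its left around 0, with a median of -0.056.

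Origin licensing was described by 6 genes, of which 0 passed. Geminin, the inhibitor of CDT1, had 209, 209.9 and 203 CPM in siHnrnpd 1 to 3, against 226, 226 and 218 CPM in controls 1 to 3. The groups did not overlap, but the difference was small (log2 change -0.11, SE 0.0589, edgeR adjusted p = 0.537). Cdt1, the licensing factor that geminin binds, had the opposite sign, with 142 ± 9.11 CPM in siHnrnpd and 134 ± 15.9 CPM in control (SD, n = 3 each) and a log2 change of 0.091 (adjusted p by edgeR = 0.767). The FPKM ratio of Cdt1 to Gmnn was 0.379, 0.332 and 0.374 in siHnrnpd 1 to 3, against 0.271, 0.321 and 0.355 in controls 1 to 3, so the groups overlapped. Cdc6, the loading ATPase, had a log2 value of -0.10, and the ORC subunits Orc1, Orc2 and Orc6 had -0.031, -0.12 and -0.076.

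The MCM2-7 helicase genes differed little between the groups. Their log2 values ran from -0.066 for Mcm6 to 0.05 for Mcm5, with a median of -0.017, and the intervals of all 6 lay within 1.3-fold. Mcm2 had 401, 375 and 406 CPM in siHnrnpd 1 to 3, against 384, 411 and 404 CPM in controls 1 to 3 (0.985-fold, 95% interval 0.891 to 1.09). Mcm3 had 137, 126 and 135 CPM in siHnrnpd 1 to 3, against 129, 138 and 132 CPM in controls 1 to 3 (0.999-fold, 95% interval 0.902 to 1.11), and Mcm4 had 210.1, 226 and 236 CPM in siHnrnpd 1 to 3, against 248, 226 and 216 CPM in controls 1 to 3 (0.975-fold, 95% interval 0.866 to 1.1). In each of these the libraries of one group lay inside or across the range of the other.

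Mcm5 was the MCM2-7 gene with a positive value, with 299, 276 and 312 CPM in siHnrnpd 1 to 3, against 281, 284 and 292 CPM in controls 1 to 3 (1.03-fold, 95% interval 0.934 to 1.15). Mcm6 had 347, 322 and 339 CPM in siHnrnpd 1 to 3, against 349.8, 362 and 344 CPM in controls 1 to 3 (0.955-fold, 95% interval 0.867 to 1.05). Mcm7 had 454, 420.0 and 464 CPM in siHnrnpd 1 to 3, against 435, 452 and 462 CPM in controls 1 to 3 (0.992-fold, 95% interval 0.894 to 1.1). In 5 of the 6 genes the lowest library was siHnrnpd 2, and for Mcm4 it was siHnrnpd 1. All 6 edgeR adjusted p were at least 0.74.

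Of the genes that turn the loaded ring into a moving helicase, Gins1, a GINS subunit, had 116, 111 and 113 CPM in siHnrnpd 1 to 3, against 119, 128 and 123 CPM in controls 1 to 3. Its groups did not overlap (log2 change -0.12, SE 0.0626, edgeR adjusted p = 0.504). Gins3 also did not overlap, with a log2 change of -0.091 (adjusted p by edgeR = 0.664), while Gins2 and Gins4 had 0.032 and -0.056. Cdc45 had a log2 value of -0.016 and Mcm10, which helps activate the helicase, one of -0.056. The intervals of all 6 genes lay within 1.3-fold.

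Among polymerases, the catalytic subunits of the leading strand enzyme and the priming enzyme had the most negative log2 values. Pole had 56.8, 57.3 and 62.1 CPM in siHnrnpd 1 to 3, against 65.5, 64.2 and 67 CPM in controls 1 to 3, with no overlap. Its log2 value was -0.16 (edgeR unadjusted p = 0.0394, adjusted p = 0.432). The unadjusted p was between 0.0149 and 0.125 over the 15 alternatives and under 0.05 in 3 of them. Pola1 had 30.9, 36.4 and 36.9 CPM in siHnrnpd 1 to 3, against 42.6, 38.4 and 37.4 CPM in controls 1 to 3 (log2 change -0.18, SE 0.0894, edgeR adjusted p = 0.486), again with no overlap, and siHnrnpd 1 was its lowest library. Without siHnrnpd 1 its log2 value was -0.10.

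The small accessory subunit of polymerase delta, Pold2, was the most positive of the 43. It had 139, 120.0 and 126 CPM in siHnrnpd 1 to 3, against 106, 116 and 129 CPM in controls 1 to 3, and control 3 lay above siHnrnpd 2 and 3 (log2 change 0.13, SE 0.0878, edgeR adjusted p = 0.613). Pold1, the catalytic subunit of the same enzyme, had a log2 value of 0.061. The remaining values were -0.12 for Pole2, the accessory subunit of polymerase epsilon, -0.0086 for Pola2, and -0.10 and -0.07 for the primase subunits Prim1 and Prim2.

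The clamp and its loader gave negative values in all 6 genes, with a median of -0.078. Pcna had 473, 522 and 468 CPM in siHnrnpd 1 to 3, against 576, 568 and 489 CPM in controls 1 to 3. Control 3 lay among the siHnrnpd libraries, and the difference did not pass (log2 change -0.16, SE 0.0827, edgeR adjusted p = 0.519). Rfc4, a small loader subunit, had 112, 133 and 107 CPM in siHnrnpd 1 to 3, against 151, 144 and 113 CPM in controls 1 to 3, so controls 1 and 2 were higher than the other 4 libraries (log2 change -0.21, SE 0.12, edgeR adjusted p = 0.541). Rfc5 did not overlap between the groups and had a log2 value of -0.082, and Rfc1, Rfc2 and Rfc3 had -0.075, -0.0078 and -0.03.

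RPA, the single-strand binding complex, held the gene with the smallest p-value. Rpa1, its large DNA-binding subunit (ENSRNOG00000003123, chromosome 10 in the deposited table), had 216, 211 and 202 CPM in siHnrnpd 1 to 3, against 250.4, 243 and 242 CPM in controls 1 to 3. All siHnrnpd libraries were below all control libraries, at 0.856-fold, 95% interval 0.779 to 0.941. The log2 value was -0.22 with an SE of 0.0610 (edgeR unadjusted p = 0.00467, adjusted p = 0.263), and 217 other genes had a smaller p. Under the 15 alternatives the log2 value ran from -0.25 to -0.20, the unadjusted p from 0.00162 to 0.0185 and the adjusted p from 0.0906 to 0.774. The partner subunits were nearer to 0: Rpa2 had a log2 value of -0.061, and Rpa3 had 62.6, 65.7 and 69.8 CPM in siHnrnpd 1 to 3, against 68.3, 75.6 and 69.2 CPM in controls 1 to 3 (log2 change -0.11, SE 0.0729, edgeR adjusted p = 0.622).

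Genes of nucleotide supply, strand joining and chromatin assembly completed the set. Rrm1, the large subunit of ribonucleotide reductase, had 334, 349 and 350.1 CPM in siHnrnpd 1 to 3, against 403, 377 and 346 CPM in controls 1 to 3. Control 3 lay below siHnrnpd 2 and 3, and the difference did not pass (log2 change -0.12, SE 0.0719, edgeR adjusted p = 0.553). Thymidylate synthase (Tyms) and Tk1, which make thymidine nucleotides by synthesis and by salvage, had log2 values of -0.0076 and 0.024. Fen1, the nuclease that trims Okazaki fragments, had -0.01. Chaf1a and Chaf1b, subunits of the chromatin assembly factor that follows PCNA, had 0.0031 and 0.12.

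Rrm2 and Lig1 each had a second, similarly described row in the table, and these copies were picked out after their values were seen. A second row described as ribonucleotide reductase M2 (LOC100359539, chromosome 19) held more reads than Rrm2 itself, at 1134, 1222 and 1092 CPM in siHnrnpd 1 to 3, against 1415, 1369 and 1184 CPM in controls 1 to 3. The Rrm2 row had 216, 228 and 235 CPM in siHnrnpd 1 to 3, against 283, 246 and 216 CPM in controls 1 to 3, which was 15.2% to 17.7% of the summed counts of both rows. How reads were divided between them was not tested, so the level of Rrm2 is uncertain. The copy had a log2 value of -0.20 (edgeR unadjusted p = 0.0407, adjusted p = 0.433) and Rrm2 one of -0.14 (adjusted p = 0.628). The sum of both rows was 1376 ± 65.5 CPM in siHnrnpd and 1571 ± 153 CPM in control (SD, n = 3 each), with 1401 CPM in control 3 inside the siHnrnpd range.

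Lig1, the ligase that seals Okazaki fragments, had the widest spread of the 43 genes among controls, with 40.1, 38.8 and 44.6 CPM in siHnrnpd 1 to 3, against 33.3, 43.1 and 49 CPM in controls 1 to 3. A row described as DNA ligase 1-like (LOC100911727, chromosome 1) held 214 counts in control 1, where Lig1 was lowest, and 3 to 8 counts in each of the other 5 libraries. The Lig1 row had 41.2 ± 3.08 CPM in siHnrnpd and 41.8 ± 7.93 CPM in control (SD, n = 3 each). With the copy's reads added the values were 41.3 ± 3.01 CPM in siHnrnpd and 44.4 ± 4.30 CPM in control (SD, n = 3 each). The log2 value of the Lig1 row was -0.025 (edgeR adjusted p = 0.965).

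The libraries of each group were not alike for these genes. The mean log2 level of the 43 genes, relative to the control mean, was -0.049, -0.067 and -0.042 in siHnrnpd 1 to 3, against 0.0033, 0.021 and -0.024 in controls 1 to 3. Summed over the 43 genes the level was 6125, 5994 and 6134 CPM in siHnrnpd 1 to 3, against 6349, 6434 and 6198 CPM in controls 1 to 3. The siHnrnpd libraries lay below the control libraries on both measures, with control 3 the nearest to them. Below the mean of the controls lay 37 of 43 genes in siHnrnpd 2, 26 in siHnrnpd 1 and 27 in siHnrnpd 3, against 25 in control 3, 22 in control 1 and 13 in control 2. By this count siHnrnpd 1 and 3 were nearly level with control 3. siHnrnpd 2 was the lowest library for 14 of the 43 genes, against 11.2% of all genes tested, and the highest for 0, against 10.6%. siHnrnpd 1 was lowest for 11 (20.5% of all genes) and highest for 8 (22.7%), and siHnrnpd 3 lowest for 7 (18.3%) and highest for 5 (18.6%). Control 1 was lowest for 7 (25%) and highest for 15 (24%), control 2 lowest for 1 (11.5%) and highest for 11 (10.5%), and control 3 lowest for 3 (13.5%) and highest for 4 (13.6%).

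The number of genes with a small p-value depended on control 3. Without it 8 of the 43 had an unadjusted p under 0.05 in edgeR, against 2 with all libraries, and 0 passed adjustment. Of these, 7 were lower (Rfc4, Rpa1, Pcna, Rrm2, Prim1, Rrm1 and Cdc6), and Pold2 was higher. Over all genes tested without control 3, 6.64% were lower and 8.84% higher at that threshold. Rfc4 then had a log2 value of -0.33, Pcna -0.23 and Rrm2 -0.23. The median of the 43 genes was -0.081 without control 3. Spread between replicates was small in the full data, with a median coefficient of variation over the 43 genes of 5.18% in siHnrnpd and 5.47% in control, against 8.32% and 8.40% over all genes tested. The 43 genes had more reads than most genes, and this comparison was not matched for level.

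**Figure D5:**
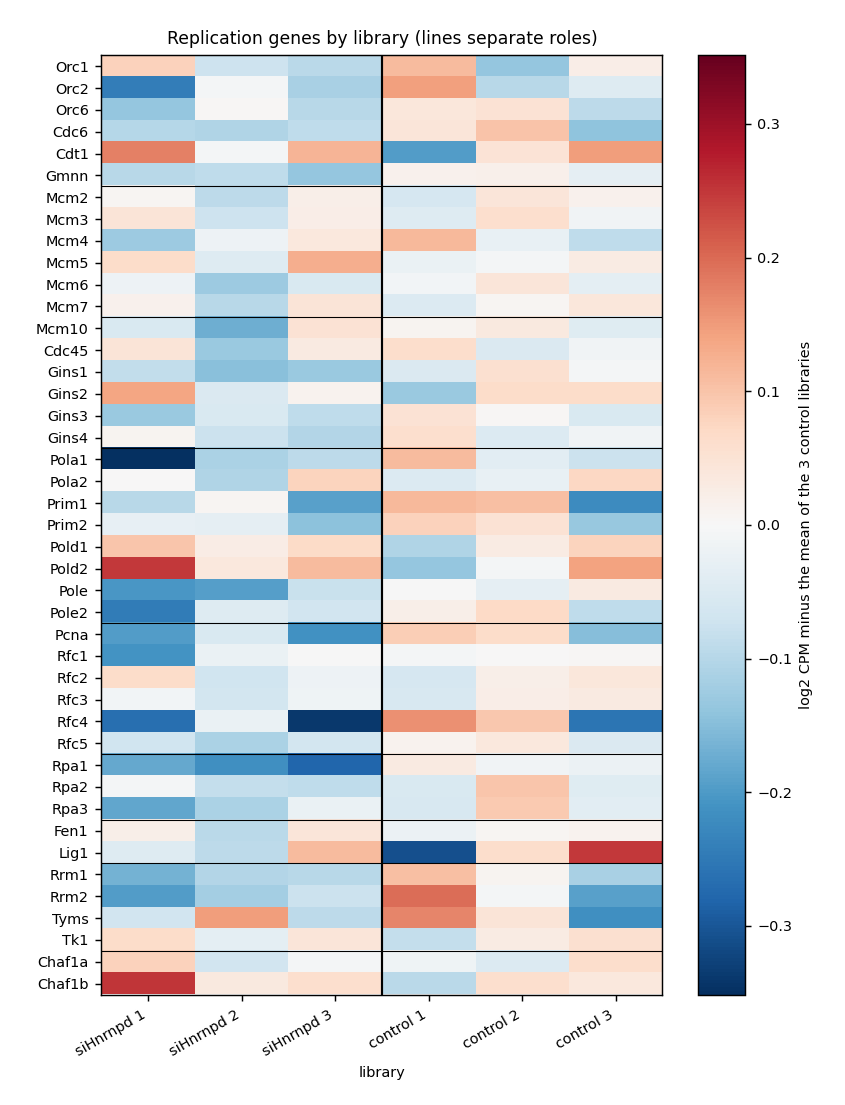
log2 CPM of each gene in each library minus the mean of the 3 control libraries (colour), with siHnrnpd 1 to 3 left of controls 1 to 3. Control 3 is blue, like siHnrnpd 1 and 3, in the rows of Prim1, Pcna, Rfc4, Rrm1 and Rrm2, and Mcm2 to Mcm7 stay pale in most libraries.

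Markers of cycling cells lay near their control levels. All 6 (Mki67, Top2a, Ccna2, Ccnb1, Cdk1 and Birc5) were tested, 0 passed, their log2 values ran from -0.029 to 0.055, and their summed level was 1507 to 1648 CPM in siHnrnpd and 1527 to 1619 CPM in control. Of the 8 fibroblast markers 7 were tested and 0 passed. At an unadjusted p under 0.05 in edgeR 2 were higher (Col1a1, log2 value 0.31, and Thy1, 0.16), against 5.84% of all genes tested. The log2 values of Lum and Pdgfra were negative, at -0.021 and -0.021. The summed level of the list was 3553 to 4118 CPM in siHnrnpd and 3131 to 3557 CPM in control. Most of it was Col1a1, and without that gene the sum was 1225 to 1372 CPM in siHnrnpd and 1213 to 1249 CPM in control. The part of these markers in the values above was not tested. Of the macrophage markers, Ptprc, Csf1r and Adgre1 had 0 to 3 counts in each library, Aif1 had 15 to 42 and Cd68 72 to 93. Of the endothelial markers, Kdr had 0 to 1 counts, Cdh5 1 to 6 and Tek 39 to 63. Cd68, Aif1 and Tek were tested and 0 of them passed.

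Other replication genes, from lists drawn up from pathway knowledge with earlier results of these data known, were compared in the same fit. Of 57 such genes 0 passed. The unadjusted p was under 0.05 for 3 with a higher level, against 5.84% of all genes tested. It was under 0.05 for 2 with a lower level (3.51%), against 5.2%. The median log2 change was -0.037, and 38 were negative (66.7%), against 48.3% of all genes tested. Timeless, which stabilises the fork and links it to the checkpoint, had 62.8, 64.5 and 69 CPM in siHnrnpd 1 to 3, against 80.1, 76.6 and 76.7 CPM in controls 1 to 3, with no overlap (log2 change -0.25, SE 0.0664, edgeR adjusted p = 0.256). Pole4, a small histone-fold subunit of polymerase epsilon, had 49.9 ± 2.48 CPM in siHnrnpd and 57.4 ± 2.11 CPM in control (SD, n = 3 each) and a log2 change of -0.20 (adjusted p by edgeR = 0.338). Chtf8, a subunit of an alternative PCNA loader, had 138 ± 4.22 CPM in siHnrnpd and 121 ± 3.26 CPM in control (SD, n = 3 each) and a log2 change of 0.19 (adjusted p by edgeR = 0.323). All 3 genes had libraries that did not overlap between the groups, and they were shown for having the smallest p of their list. Of the 57 genes, 5 were apart with siHnrnpd lower (8.77%), against 8.57% of all genes tested. In the other direction 4 were apart, against 8.42% of all genes tested.

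In the list of other origin genes 12 were tested and 0 had an unadjusted p under 0.05. The lowest p was that of the ORC subunit Orc5 (log2 value -0.19, adjusted p by edgeR = 0.494). Among 14 other nucleotide supply genes 2 were higher at an unadjusted p under 0.05 in edgeR, against 5.84% of all genes tested. These were the mitochondrial thymidine kinase Tk2 (log2 value 0.31, adjusted p by edgeR = 0.313) and the deoxycytidylate deaminase Dctd (0.21, adjusted p by edgeR = 0.322). Among 12 genes of replication-coupled chromatin 0 had an unadjusted p under 0.05, and the lowest p was that of Ubr7 (log2 value -0.13).

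The E2F and RB family, which governs transcription of many replication genes, had 13 tested genes with a median log2 change of 0.0089, and 0 passed. E2f6, a repressor of the family, had 103, 111 and 107 CPM in siHnrnpd 1 to 3, against 123, 119 and 121 CPM in controls 1 to 3, with no overlap (log2 change -0.18, SE 0.0624, edgeR adjusted p = 0.347). E2f2, an activator expressed at 2.07 FPKM, had 10.3, 9.87 and 10.8 CPM in siHnrnpd 1 to 3, against 12.4, 12 and 12.9 CPM in controls 1 to 3, also with no overlap (log2 change -0.27, SE 0.0985, edgeR adjusted p = 0.362). Both were lower at an unadjusted p under 0.05 in edgeR, or 15.4% of the 13 genes, against 5.2% of all genes tested. E2f3, an activator named after its values were seen, lay higher in all siHnrnpd libraries, at a log2 change of 0.26 (adjusted p by edgeR = 0.558). E2f4 had a log2 change of 0.17 (adjusted p by edgeR = 0.493). E2f1, expressed at 23.3 FPKM, was also named after its values were seen. It had 123 ± 8.15 CPM in siHnrnpd and 122 ± 5.22 CPM in control (SD, n = 3 each). Among the replication genes, the 16 with an E2F match in the promoter had a median log2 change of -0.046 and the 21 without one had -0.056. These sets lay close together, and the 6 genes with no promoter found had a median of -0.079. Only the 8-base forms given above were searched, so promoters without a match may hold other forms of the motif.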

How the data were processed

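RNA of 6 HEI-OC1 libraries was sequenced. The authors aligned the reads with TopHat2, whose version is not given here, to mRatBN7.2, per the submitters' processing notes. Neither the counter nor its strand setting nor the annotation is named in the sources used here, so overlapping and antisense genes may share reads. One deposited table holds raw read counts per gene (18718 rows). The other holds FPKM values computed by the authors (18628 rows). Columns were matched to samples by siRNA name and replicate number, and 0 columns were left over.

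The main test was edgeR 4.0.16 in R 4.3.3: TMM scaling, filterByExpr, a quasi-likelihood model of group alone, and p-values adjusted over 12268 genes (Benjamini-Hochberg), called under 0.05. Intervals are 95% intervals of the fitted log2 change, and their bounds were chosen after the values were seen. The 15 alternatives used DESeq2 1.42.0, other scalings and filters, a replicate block, 1 library fewer, or limma 3.58.1 on log2(FPKM + 1) or log2(FPKM + 0.1), which understates changes of low genes. No pair of libraries agreed within sampling noise. The genes and lists were chosen with earlier results of these data known. By rule, values per library were given for Hnrnpd, the 10 genes with the smallest p, Pcna, Pola1 and Mcm2 to Mcm7, and up to 3 genes with the smallest p from each further replication list. E2f1, E2f3, Rrm2, Lig1, the second rows of Rrm2 and Lig1, and the ratio of Cdt1 to Gmnn fall outside that rule. So do the further cell type and cycling markers named. Dbf4 had 2 rows and Dna2 none, and neither was used. Promoters are from RefSeq (GRCr8), matched by symbol.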

Additional observations from a re-analysis of the deposited data

How the results depend on the processing

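Of the 43 replication genes, 0 were called by edgeR, DESeq2 or limma under any of the 15 alternatives. The genes called among all tested numbered 10 with all libraries in edgeR, 162 with DESeq2, 147 with no filter, 6 with upper-quartile scaling (3 higher and 3 lower, against 3 and 7), 5 on log2(FPKM + 0.1), 0 on log2(FPKM + 1) with no filter (limma, 1554 at an unadjusted p under 0.05) and 0 with the replicate block (edgeR, 1062 at an unadjusted p under 0.05). Leaving out 1 library gave 0 to 14 calls: 0 without control 1, 2 or 3 (964, 724 and 1919 genes at an unadjusted p under 0.05), and 1, 7 and 14 without siHnrnpd 1, 2 and 3. The replication genes at an unadjusted p under 0.05 numbered 1, always Rpa1, with DESeq2, upper-quartile scaling, the replicate block and each FPKM setting, and 1 to 8 when 1 library was left out. Their median log2 change ran from -0.081 to -0.045 with 1 library left out. Replicate numbers are shared between the groups, and whether they pair the libraries is not stated. Same-numbered libraries deviated with correlations of -0.26, 0.14 and 0.10 over genes, and siHnrnpd 1 correlated best with control 3. Each deviation was taken from a group mean of 3 libraries, so these correlations cannot settle the pairing. The causes were not tested. The Hnrnpd call was lost with the replicate block (adjusted p = 0.0873 by edgeR), with log2(FPKM + 1) and no filter (0.155 by limma) and without control 1, 2 or 3 or siHnrnpd 1 or 3 (0.0508 to 0.319 by edgeR). Precision is limited by 3 libraries a group: Rpa1, with a log2 change of -0.22 and an SE of 0.0610, was not called.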
